A study of Rattus norvegicus with 20 samples.

Results

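The endoplasmic reticulum (ER) module described here held 38 genes, chosen by name as ER chaperones, disulfide isomerases, degradation genes, stress sensors and translocon genes, of 32402 genes in the deposited tables. The 38 fell into 5 role groups of 11 chaperones, 5 disulfide isomerase genes, 7 degradation genes, 4 sensor genes and 11 translocon genes. The sensor genes as counted here are Atf6, Ern1, Eif2ak3 and Xbp1, the last encoding a transcription factor and not a sensor. The genes were chosen with earlier results of these data known, so the shares called below describe the list and do not test it. All 38 passed the filter on low values, a mean of at least 10 normalised read counts. RNA came from bilateral punches of the supraoptic nucleus (SON), the hypothalamic nucleus whose magnocellular neurones make vasopressin and oxytocin, in 20 male Wistar Han rats, of which 5 were sequenced in each of 4 groups. Adult rats were 3 months and aged rats 18 months old. Within each age they were euhydrated (EH), with free access to water and food, or dehydrated (DH), with drinking water removed for 2 days by the labels and for longer by the study's methods. A punch holds glia, vessels and neighbouring neurones as well as magnocellular neurones, so fewer cells of a type and less RNA per cell cannot be told apart in these values.

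Reads assigned to genes ranged from 24268398 to 30348118 per rat, with a median of 27691998. The labelled tissue carried its defining transcripts in every rat: in euhydrated adult rats Avp, the vasopressin gene, averaged 163773 normalised read counts ± 32462 (SD, n = 5) and Oxt, the oxytocin gene, 79666 ± 6667 (SD, n = 5), both on the scale of the adult DH table. The 14 listed magnocellular markers summed to between 220044 and 313184 in adult EH and between 324256 and 425978 in adult DH, groups that did not overlap, and 8 of the 14 rose in adult DH. In aged rats the same sums ran from 284214 to 407023 in EH and from 347101 to 567271 in DH, groups that overlapped. There 6 of 14 markers were higher and 1 lower. Over all genes tested, 7.67% were called higher in adult DH and 4.05% in aged DH. On average most of the sum in each group came from Avp and Oxt. A change in a marker was not tested as a change in cell number.

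Proteins destined for secretion enter the ER through the Sec61 channel, lose their signal peptide, are folded by chaperones and cross-linked by disulfide isomerases, and are exported to the cytosol and degraded if folding fails. When unfolded protein accumulates, the sensors ATF6, IRE1 (encoded by Ern1) and PERK (encoded by Eif2ak3) start the unfolded protein response (UPR). Cleaved ATF6 and spliced XBP1 then raise transcription of chaperone and degradation genes, and PERK phosphorylates eIF2alpha and favours translation of ATF4. Magnocellular neurones are among the most active secretory neurones, since they ship large amounts of prohormone to the posterior pituitary. Gene-level counts do not show the splicing of Xbp1, the cleavage of ATF6 or the phosphorylation of eIF2alpha.

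The DNA letters through which ATF6 and XBP1 act are short, and they are shown here because these letters were far more frequent in the members' promoters than in all rat promoters. Promoter windows from RefSeq (rat build GRCr8, from 250 bases before to 50 bases after an annotated start) were found for 31 of the 38 members, in 32 windows, since Hyou1 has 2 that overlap. No window was found for Manf, Pdia3, Pdia6, Derl1, Ern1, Atf6 or Sec61a1. Both strands were searched for 4 motifs, the ER stress response element (ERSE, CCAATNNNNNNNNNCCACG), ERSE-II (ATTGGNCCACG), the UPR element core TGACGTGG and the CRE-like core TGACGTGA. ERSE and ERSE-II share the letters CCACG, and the core TGACGTGG ends in letters that overlap with CCACG on the other strand.
In the ERSE sites below the capitals are the fixed letters and the 9 lower-case bases are free. Each site is written 5′ to 3′ on the strand where it matched, and its distance is from the annotated start of its window to the farther end of the site:
Hspa5, 43 bases before the start, strand of the gene, GRCr8 chr3:38452973-38452991: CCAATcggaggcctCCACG
Xbp1, 65 bases before the start, strand of the gene, GRCr8 chr14:84604558-84604576: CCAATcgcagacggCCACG
Hsp90b1, 72 bases before the start, strand opposite to the gene, GRCr8 chr7:23012347-23012365: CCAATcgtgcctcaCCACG
Dnajc3, 133 bases before the start, strand of the gene, GRCr8 chr15:102432534-102432552: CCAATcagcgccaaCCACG
Creld2, 145 bases before the start, strand opposite to the gene, GRCr8 chr7:121789239-121789257: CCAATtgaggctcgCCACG
Derl3, 154 bases before the start, strand opposite to the gene, GRCr8 chr20:12766601-12766619: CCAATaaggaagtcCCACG
Hsp90b1, 176 bases before the start, strand of the gene, GRCr8 chr7:23012451-23012469: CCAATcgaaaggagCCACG
Ero1b, 224 bases before the start, strand opposite to the gene, GRCr8 chr17:92941458-92941476: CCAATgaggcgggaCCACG
Canx, 230 bases before the start, strand of the gene, GRCr8 chr10:35158069-35158087: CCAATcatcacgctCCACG
Calr, 232 bases before the start, strand opposite to the gene, GRCr8 chr19:40213135-40213153: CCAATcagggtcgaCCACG
In the ERSE-II sites the capitals are again the fixed letters:
Dnajb11, 10 bases before the start, strand of the gene, GRCr8 chr11:91672800-91672810: ATTGGcCCACG
Hyou1, 88 bases before the start, strand opposite to the gene, GRCr8 chr8:53602794-53602804: ATTGGgCCACG
Herpud1, 124 bases before the start, strand of the gene, GRCr8 chr19:10614821-10614831: ATTGGgCCACG
Hyou1, 188 bases before the start, strand opposite to the gene, GRCr8 chr8:53602694-53602704: ATTGGcCCACG

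ERSE was present in 9 of the 31 members with a window (29.0%) and in 22 of all 33469 rat windows (0.0657%). By role group it was present in 6 of 10 chaperones, 1 of 3 disulfide isomerase genes (Ero1b) and 1 of 6 degradation genes (Derl3). In the sensor group it was present in 1 of 2 genes (Xbp1, not itself a sensor), and in the translocon group in 0 of 10. ERSE-II was present in 3 members (9.68%), Hyou1 with 2 sites, Dnajb11 and Herpud1, against 0.0508% of all windows. The UPR element core was found in Hyou1, whose copy overlaps an ERSE-II site, and the CRE-like core in Hspa5, against 0.595% and 0.400% of all windows. The 22 windows with ERSE include those of the members, and the members were chosen by name as ER and UPR genes. The excess of ERSE thus describes the list and was not tested. A match is a run of letters in the window and was not tested as a binding site.

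The upstream stretches printed next are those of 2 ERSE members that rose in DH at both ages, Hspa5 and Hsp90b1, and of 2 ERSE members that were called in no comparison, Creld2 and Xbp1. Each runs 5′ to 3′ on the strand of its gene and ends at the base before the annotated start, with the fixed letters of ERSE in capitals (CGTGG and ATTGG where the site lies on the opposite strand):
Hspa5 upstream stretch, GRCr8 chr3:38452766-38453015, plus strand: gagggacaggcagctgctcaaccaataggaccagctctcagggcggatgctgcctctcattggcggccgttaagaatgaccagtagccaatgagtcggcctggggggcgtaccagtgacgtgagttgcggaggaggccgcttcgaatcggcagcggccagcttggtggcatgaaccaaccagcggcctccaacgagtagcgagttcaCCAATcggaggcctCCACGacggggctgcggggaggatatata
Hsp90b1 upstream stretch, GRCr8 chr7:23012294-23012543, minus strand: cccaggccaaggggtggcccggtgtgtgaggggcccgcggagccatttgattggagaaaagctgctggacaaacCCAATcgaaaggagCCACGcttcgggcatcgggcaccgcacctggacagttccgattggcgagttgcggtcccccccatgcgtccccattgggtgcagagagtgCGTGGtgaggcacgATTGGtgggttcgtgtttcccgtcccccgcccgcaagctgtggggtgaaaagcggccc
Creld2 upstream stretch, GRCr8 chr7:121789134-121789383, plus strand: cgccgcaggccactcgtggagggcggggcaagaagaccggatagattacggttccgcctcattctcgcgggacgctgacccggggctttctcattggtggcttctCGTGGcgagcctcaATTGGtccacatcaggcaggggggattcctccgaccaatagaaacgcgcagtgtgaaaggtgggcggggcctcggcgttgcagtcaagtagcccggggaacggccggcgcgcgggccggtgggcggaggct
Xbp1 upstream stretch, GRCr8 chr14:84604373-84604622, plus strand: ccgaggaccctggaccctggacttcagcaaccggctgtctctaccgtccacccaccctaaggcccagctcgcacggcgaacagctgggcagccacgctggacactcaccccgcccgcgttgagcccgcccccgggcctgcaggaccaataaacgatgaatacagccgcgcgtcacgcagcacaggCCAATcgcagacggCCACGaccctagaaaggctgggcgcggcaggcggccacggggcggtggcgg

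**Figure D1:**
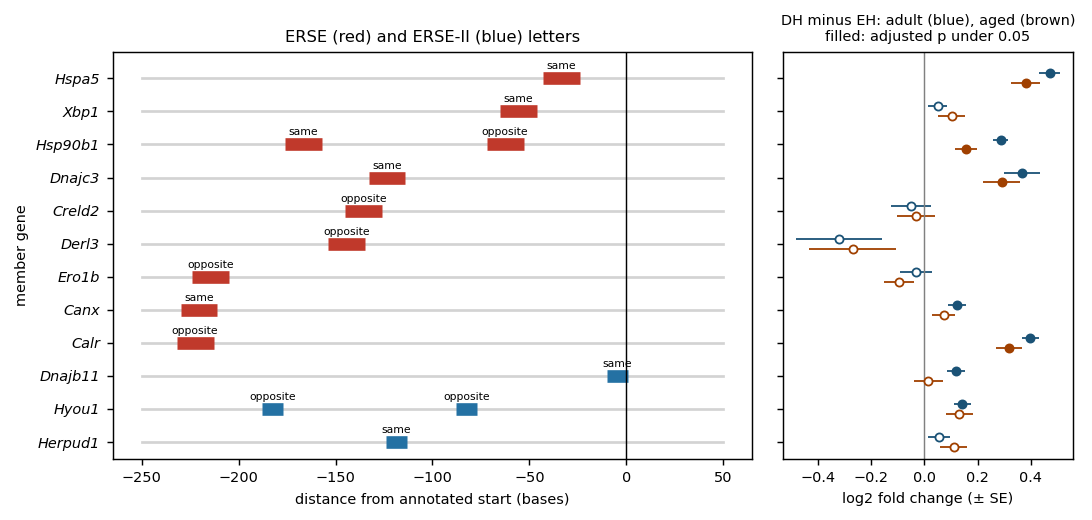
Left, position of ERSE (red) and ERSE-II (blue) letters in the promoter windows of the 12 members that hold either, as distance from the annotated start in bases, with the word above each site giving its strand relative to the gene. Right, log2 fold change with SE in adult DH (blue) and aged DH (brown), filled where the adjusted p was under 0.05. ERSE is present both in members that rose, such as Hspa5 and Calr, and in members that did not, such as Xbp1, Creld2, Ero1b and Derl3.

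Dehydration in adult rats moved the folding end of the module most. Here 18 of the 38 members were higher in DH and 0 were lower, by limma at a Padj under 0.05 after Benjamini-Hochberg adjustment over all genes tested. That is 47.4% of the module, against 12.7% of the 15280 genes tested called in either direction and 7.67% called higher. The median log2 fold change (LFC) was 0.12 over the module and -0.01 over all genes tested. In 14 members every DH rat lay above every EH rat, a pattern seen in 6.81% of all genes. The share called was uneven across roles: 9 of 11 chaperones, 4 of 5 disulfide isomerase genes, 3 of 11 translocon genes, 1 of 7 degradation genes and 1 of 4 sensor genes.

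**Figure D2:**
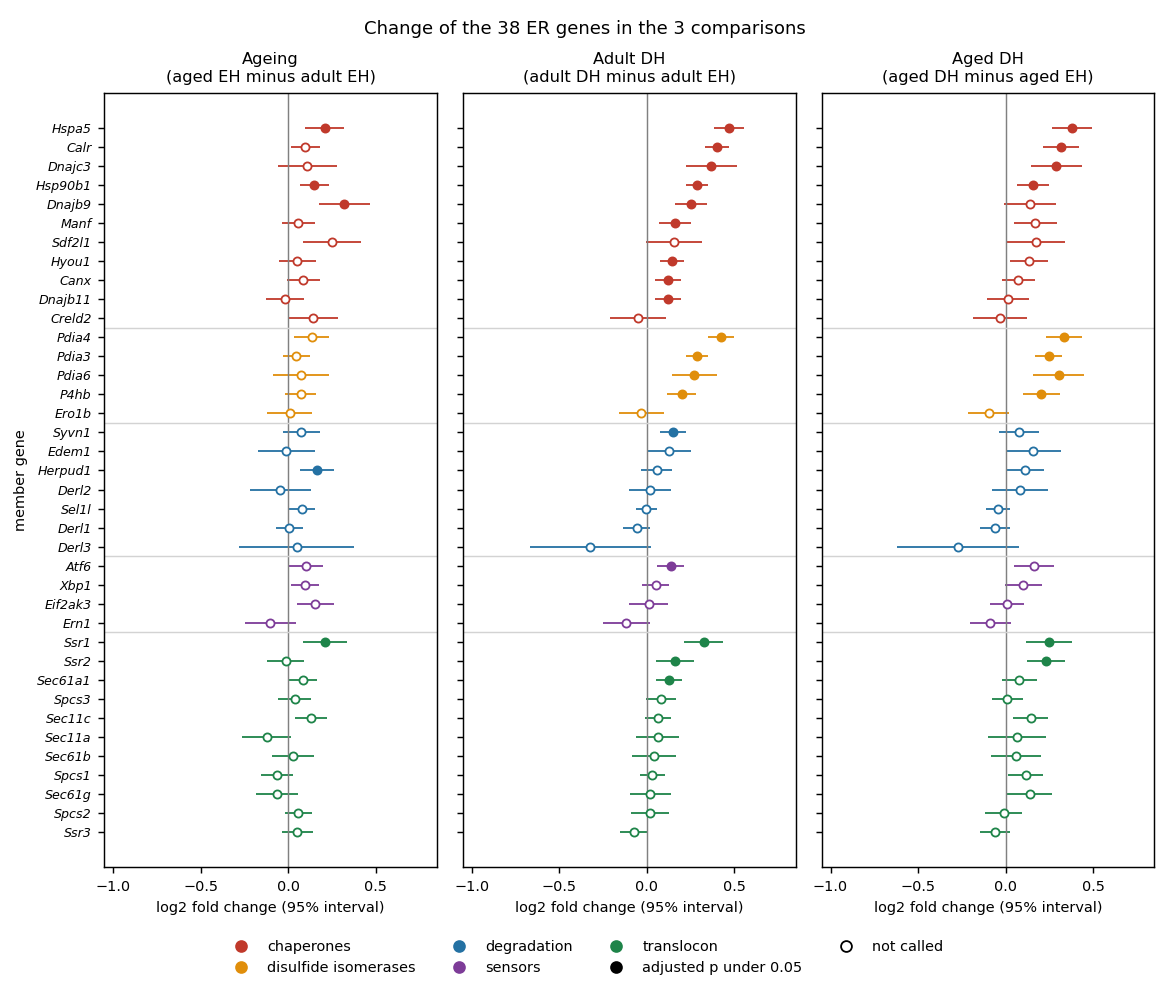
LFC with its 95% interval (x axis) for each of the 38 members (y axis, grouped and coloured by role) in ageing, adult DH and aged DH, with filled points where the adjusted p was under 0.05. The filled points are all to the right of 0, and in both DH panels they gather among the chaperones and disulfide isomerases.

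Among the chaperones, Hspa5 (ENSRNOG00000018294) encodes BiP, the HSP70 of the ER lumen and the protein that holds the UPR sensors inactive. It was measured at 15405, 14961, 15056, 16284 and 16784 normalised read counts in the 5 adult EH rats (replicates 1, 2, 4, 5 and 6, in that order here and for aged EH) and at 20727, 20890, 22290, 22900 and 21912 in the 5 adult DH rats (replicates 1 to 5). The groups did not overlap, and the lowest DH rat was above the highest EH rat by more than the range within EH. The means were 15698 ± 801 and 21744 ± 926 (SD, n = 5 each), an LFC of 0.47 ± 0.04 (SE) and a fold of 1.39 (Padj = 4.88e-06). Calr, encoding calreticulin, a calcium-binding lectin chaperone of glycoproteins, stood at 16632, 16134, 15596, 15786 and 16361 in EH and at 20226, 21705, 20758, 22395 and 21021 in DH. Every DH rat was again above every EH rat, with an LFC of 0.40 ± 0.03 (Padj = 3.54e-06). Dnajc3, which encodes the BiP co-chaperone P58IPK, ranged from 866 to 1133 in EH and from 1246 to 1439 in DH (LFC 0.37 ± 0.07, Padj = 0.00306).

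The other chaperones that rose did so by less. Hsp90b1, encoding the ER HSP90 GRP94, rose by an LFC of 0.29 ± 0.03 (Padj = 2.81e-05), and Dnajb9, encoding the BiP co-chaperone ERdj4, by 0.25 ± 0.04 (Padj = 0.00162). Manf, encoding a secreted ER stress protein, Hyou1, encoding a large HSP70 that exchanges nucleotide on BiP, Canx, encoding the membrane lectin chaperone calnexin, and Dnajb11, encoding the co-chaperone ERdj3, rose by LFC of 0.12 to 0.16. The chaperone genes not called were Sdf2l1, whose product works with ERdj3 (LFC 0.16 ± 0.07, Padj = 0.19), and Creld2 (LFC -0.05 ± 0.08, Padj = 0.72). Creld2 ranged from 366 to 430 in EH and from 352 to 439 in DH, so its groups overlapped throughout, although its promoter carries ERSE as the promoters of Hspa5, Hsp90b1, Canx, Dnajc3 and Calr do.

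The disulfide isomerases rose in the same comparison. Pdia4 (ERp72), a thioredoxin-fold oxidoreductase of the ER lumen, was measured at 2310, 2137, 2278, 2228 and 2355 in adult EH rats and at 2956, 3034, 2990, 3205 and 2998 in adult DH rats. All DH rats lay above all EH rats, with an LFC of 0.43 ± 0.03 (Padj = 3.74e-06). Pdia3 (ERp57), the isomerase that works with calnexin and calreticulin, stood at 11594, 11205, 11723, 11880 and 12135 in EH and at 13667, 14281, 14608, 14321 and 14613 in DH, an LFC of 0.29 ± 0.03 with no overlap (Padj = 2.73e-05). Pdia6 rose by 0.27 ± 0.06 (Padj = 0.00917) and P4hb, encoding PDI itself, by 0.20 ± 0.04 (Padj = 0.00444). Ero1b, an oxidase that recharges the isomerases and is not an isomerase, was not called, with 947 to 1094 in EH and 884 to 1085 in DH (LFC -0.03 ± 0.06).

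The degradation genes were mostly not called. The exception was Syvn1 (ENSRNOG00000020950), which encodes the ubiquitin ligase HRD1, at 2025, 1964, 1981, 1926 and 2016 in adult EH rats and at 2182, 2101, 2253, 2127 and 2344 in adult DH rats. These groups did not overlap, although the step was small, an LFC of 0.15 ± 0.04 (Padj = 0.0132). Herpud1, encoding a membrane protein of the HRD1 complex, stood at 1448, 1514, 1496, 1571 and 1549 in EH and at 1600, 1695, 1518, 1468 and 1602 in DH, which overlapped (LFC 0.06 ± 0.04, Padj = 0.43). Sel1l, the adaptor of HRD1, had an LFC of -0.00 with a 95% interval from -0.06 to 0.06. Edem1, encoding a mannose-trimming factor, Derl1 and Derl2, encoding derlins of the export channel, had LFC of 0.13, -0.06 and 0.02 and were not called. Derl3, the derlin gene with the lowest counts (39 to 74 in adult rats), had an LFC of -0.32 with an interval from -0.67 to 0.02, too wide to give a direction.

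In the sensor group Atf6 was called, and Ern1, Eif2ak3 and the transcription factor gene Xbp1 were not. Atf6 was measured at 1248, 1191, 1291, 1229 and 1270 in adult EH rats and at 1346, 1401, 1329, 1341 and 1433 in adult DH rats, which did not overlap (LFC 0.14 ± 0.04, Padj = 0.0251). Xbp1, whose promoter carries ERSE, stood at 2158, 2228, 2168, 2157 and 2115 in EH and at 2121, 2360, 2284, 2141 and 2314 in DH. These values overlapped, and the LFC of 0.05 ± 0.04 had an interval from -0.03 to 0.13 (Padj = 0.40). Eif2ak3 stood at 794, 901, 909, 887 and 841 in EH and at 856, 860, 830, 855 and 963 in DH, with an LFC of 0.01 ± 0.05, and Ern1 had an LFC of -0.12 ± 0.06 (Padj = 0.26).

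Within the translocon group the calls were on TRAP and Sec61 genes, and the signal peptidase genes were not called. Ssr1 (ENSRNOG00000014165) encodes the alpha subunit of the translocon-associated protein complex TRAP. It was measured at 4404, 4190, 4821, 4820 and 4984 in adult EH rats and at 5740, 5250, 5993, 5936 and 6146 in adult DH rats. The groups did not overlap (LFC 0.32 ± 0.05, Padj = 0.00114). Ssr2, encoding TRAP beta, stood at 1063, 1080, 1072, 1192 and 1023 in EH and at 1120, 1219, 1246, 1184 and 1300 in DH. Here EH replicate 5 lay inside the DH range, and the LFC was 0.16 ± 0.05 (Padj = 0.0489). Sec61a1, encoding the channel itself, rose by 0.13 ± 0.03 (Padj = 0.028), while its small partners Sec61b and Sec61g, with LFC of 0.04 and 0.02, and Ssr3 (TRAP gamma), with -0.07, were not called. The 5 signal peptidase genes Spcs1, Spcs2, Spcs3, Sec11a and Sec11c had LFC from 0.02 to 0.08.

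The calls in adult DH were lost for 6 members when a single rat was left out, with adjusted p up to 0.11: Canx by leaving out any of 6 rats, Dnajb11 and Ssr2 any of 8, Sec61a1 any of 6, Atf6 any of 5 and Manf any of 4. Blood markers were lower in the same DH rats, with 2 of 6 tested called and a median LFC of -0.88. Over all 15280 genes tested, 762 were called lower in adult DH. Their summed level ran from 10312 to 21623 in EH and from 6468 to 15818 in DH. The part of blood or of the higher magnocellular markers in the ER values was not tested.

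In aged rats fewer members passed the threshold in DH, all of them higher. An unadjusted limma p under 0.05 was reached by 19 members in adult DH, against 4109 of all 15280 genes. In aged DH it was reached by 18 members, against 3282 of all 15346 genes. Here 10 of 38 members were higher in DH and 0 were lower, or 26.3%, against 7.29% of the 15346 genes tested called in either direction and 4.05% called higher. The median LFC was 0.11 over the module and -0.00 over all genes, and in 9 members the groups did not overlap, against 4.12% of all genes with DH higher. The 10 were Hspa5, Hsp90b1, Calr and Dnajc3 among the 11 chaperones, Pdia3, Pdia4, Pdia6 and P4hb among the 5 disulfide isomerase genes, and Ssr1 and Ssr2 among the 11 translocon genes. None of the 7 degradation genes and none of the 4 sensor genes passed limma's threshold, and 1 of each had an unadjusted p under 0.05.

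Hspa5 was measured at 17984, 18881, 20878, 19758 and 16959 in the 5 aged EH rats and at 24864, 23625, 25058, 26167 and 23042 in the 5 aged DH rats (replicates 1, 2, 3, 5 and 6), on the scale of the aged DH table. The groups did not overlap, with means of 18892 ± 1521 and 24551 ± 1235 (SD, n = 5 each) and an LFC of 0.38 ± 0.05 (Padj = 0.00125). Calr stood at 17828, 17477, 19379, 18327 and 16764 in EH and at 24065, 21420, 23417, 22343 and 20679 in DH (LFC 0.32 ± 0.05, Padj = 0.00175). Dnajc3 rose by 0.29 ± 0.07 (Padj = 0.0196) with no overlap, and Hsp90b1 by 0.16 ± 0.04 (Padj = 0.0353) with an overlap, since the highest EH rat, at 21727, was above the lowest DH rat, at 21599.

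Pdia4 stood at 2512, 2559, 2800, 2698 and 2354 in aged EH rats and at 3369, 3145, 3269, 3406 and 3070 in aged DH rats. Every DH rat was above every EH rat (LFC 0.33 ± 0.05, Padj = 0.00131), as for Pdia3, at 12126, 12802, 13350, 12798 and 11844 in EH and 14935, 14670, 15051, 15320 and 14617 in DH (LFC 0.25 ± 0.04, Padj = 0.00141). Pdia6 and P4hb rose by LFC of 0.30 ± 0.07 and 0.20 ± 0.05 with no overlap, and Ero1b again was not called (LFC -0.10 ± 0.06).

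In the translocon group Ssr1 stood at 5424, 5666, 6201, 5716 and 4967 in aged EH rats and at 6478, 6209, 7514, 6757 and 6231 in aged DH rats. The LFC was 0.25 ± 0.06 (Padj = 0.0246), with a gap of only a few counts between the groups. Ssr2 stood at 1164, 1158, 1150, 1069 and 1051 in EH and at 1339, 1345, 1249, 1419 and 1218 in DH (LFC 0.23 ± 0.05, Padj = 0.0126). Of the genes that were not called, Xbp1 stood at 2415, 2331, 2606, 2410 and 2289 in EH and at 2443, 2537, 2657, 2876 and 2433 in DH. The Xbp1 values overlapped (LFC 0.10 ± 0.05, Padj = 0.26). Atf6 stood at 1371, 1509, 1315, 1334 and 1439 in EH and at 1568, 1415, 1706, 1568 and 1536 in DH, where a single DH rat, replicate 2, fell inside the EH range (LFC 0.16 ± 0.05, Padj = 0.0857). Syvn1, at 1992 to 2426 in EH and 2207 to 2400 in DH, was not called (LFC 0.08 ± 0.05), nor was Eif2ak3 (LFC 0.01 ± 0.04), and in both every DH rat lay within the EH range. Herpud1 stood at 1819, 1611, 1873, 1825 and 1713 in EH and at 1834, 1938, 1765, 1992 and 2010 in DH. Replicates 2, 5 and 6 of DH lay above every EH rat and the others inside the EH range, and Herpud1 was not called (LFC 0.11 ± 0.05, Padj = 0.22).

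**Figure D3:**
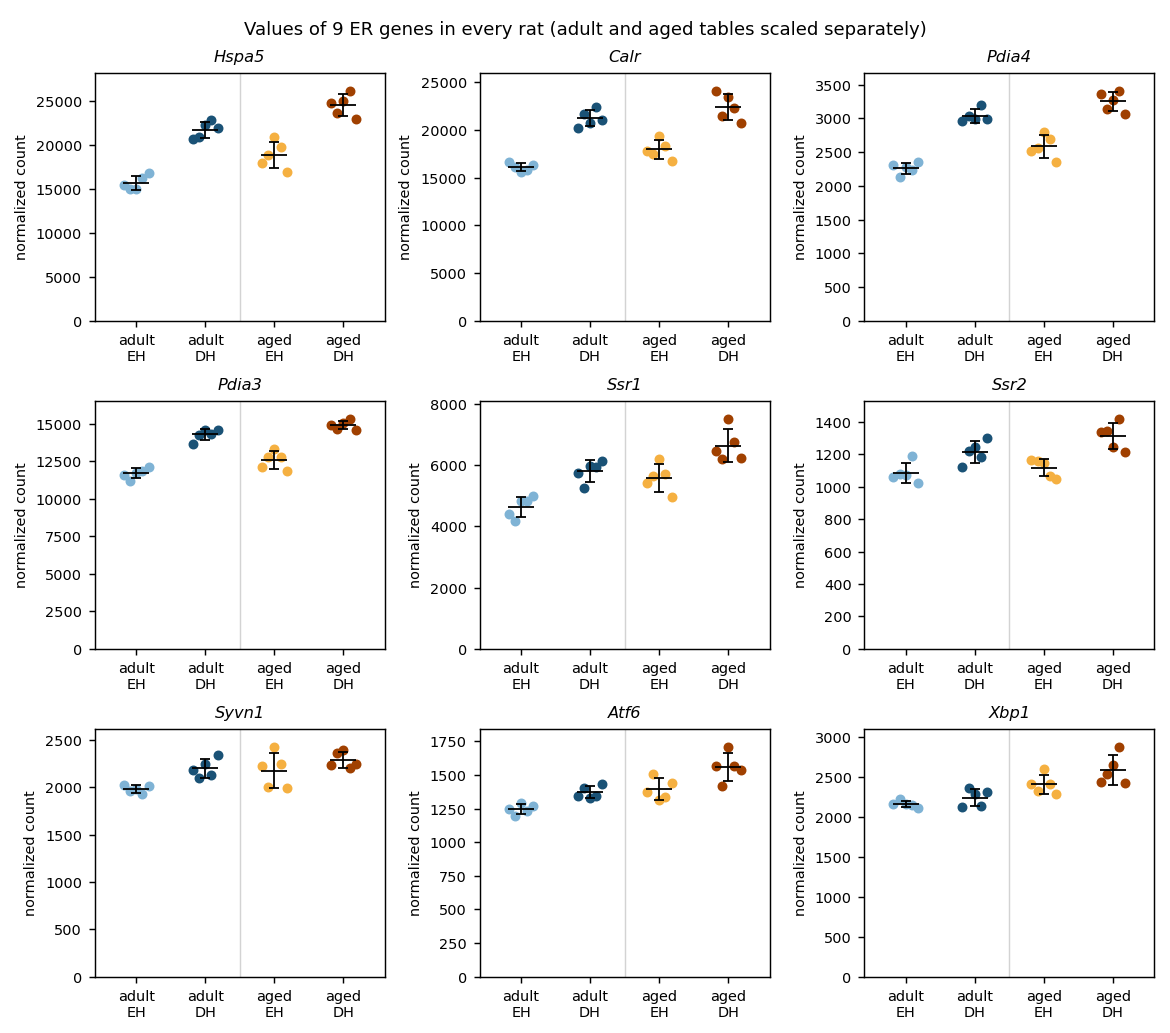
Normalised read counts (y axis, from 0) of 9 members in every rat by group (x axis), with black bars for the mean and SD of 5 rats; adult and aged values come from tables scaled separately. The DH points lie above all EH points of the same age for Hspa5, Calr, Pdia4, Pdia3 and Ssr1, and overlap them for Xbp1.

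A single aged EH rat, replicate 6, had the lowest EH value in all 10 members called in aged DH, and without it 8 members were called. Leaving out aged DH replicate 5 gave 6 called members, the lowest count over the 10 rats, and Hsp90b1 lost its call without any of 7 rats, Ssr1 any of 4, P4hb any of 2 and Dnajc3 without 1. The marker genes of glutamatergic cortical or amygdalar neurones were lower in aged DH, with 4 of 8 called lower. Their summed level was 8177 to 12031 in the EH rats and 5564 to 7190 in the DH rats of that age, groups that did not overlap. Blood markers were lower too, with 1 of 6 tested called and sums of 9203 to 22986 in EH and 7165 to 13082 in DH. Over all 15346 genes tested, 498 were called lower in aged DH. The part of these other cells in the ER values was not tested.

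Set side by side, the responses at the 2 ages ran close together over the members, in comparisons that share no rat. All 10 members called in aged DH were among the 18 called in adult DH, which is 100% of the aged list and 55.6% of the adult list. The LFC had the same sign at both ages in 37 of 38 members (97.4%), against 66.5% of 15159 genes tested in both, and Pearson's r across the 38 genes was 0.93, against 0.49 across those 15159 genes. Genes of a module are not independent replicates, so these are descriptions of the 2 lists of values. Over all 38 members the LFC was lower in aged than in adult rats in 19. Among the 18 called in adult rats, a list chosen for its adult LFC, it was lower in 13, with medians of 0.19 in aged and 0.23 in adult rats.

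The difference in response between the ages, fitted over all 20 rats, passed the threshold for 0 of 38 members by limma, by edgeR and by DESeq2. At an unadjusted p under 0.05 it held for 1 member, Hsp90b1, against 9.93% of all 15326 genes tested. Its difference, aged response minus adult response, was -0.13 ± 0.05 on the LFC scale with an interval from -0.23 to -0.02 and Padj = 0.41. For Hspa5 the difference was -0.09, with an interval from -0.23 to 0.05, for Calr -0.08, with one from -0.20 to 0.04, and for Pdia4 -0.09, with one from -0.22 to 0.03. For Ssr1 it was -0.08, from -0.26 to 0.10, and for Ssr2 it was 0.07, from -0.08 to 0.22. Over the 38 members the estimates ran from -0.13 to 0.12, with 8 of 11 chaperones below 0 and the other three at 0.02 or less above it. These intervals are as wide as many of the responses themselves, so equal responses are not shown either.

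**Figure D4:**
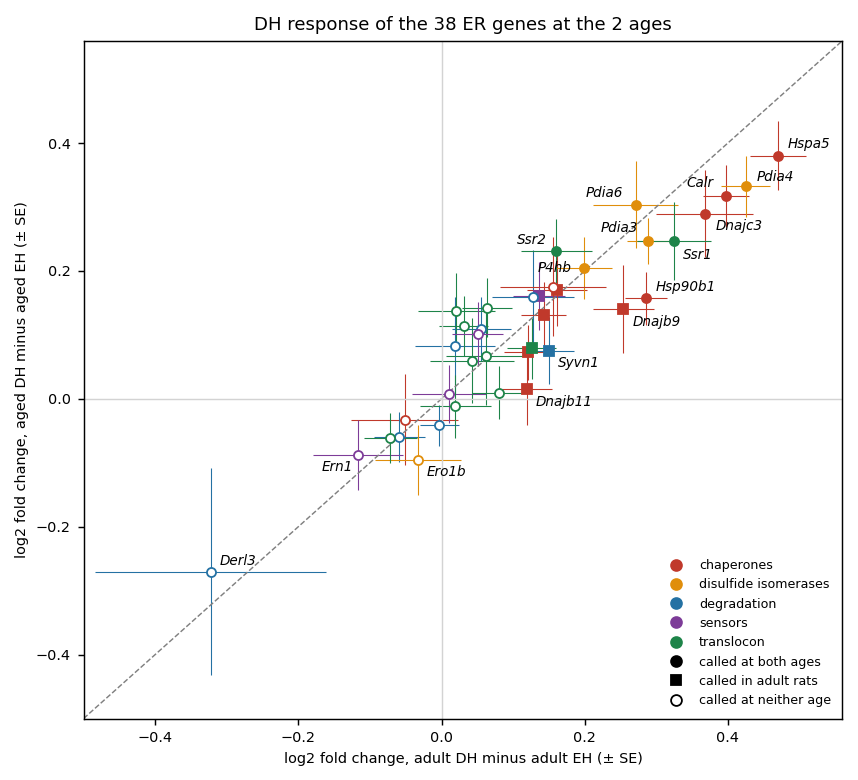
LFC in adult DH (x axis) against LFC in aged DH (y axis) for the 38 members, coloured by role, with SE bars and the line of equal response dashed. Filled circles were called at both ages, squares in adult rats and open circles at neither age; Hspa5, Calr and Pdia4 sit highest on both axes and Derl3, with the widest bars, lowest.

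With ageing alone, in euhydrated rats, the change was small. In aged EH against adult EH rats, 5 of 38 members were higher and 0 were lower (13.2%), against 5.99% of the 15369 genes tested called in either direction and 2.69% called higher. The median LFC of the module was 0.07 and that of all genes 0.00. The 5 were the chaperones Hspa5, Hsp90b1 and Dnajb9, the degradation gene Herpud1 and the translocon gene Ssr1, and no disulfide isomerase gene and no sensor gene was called. In 2 of them, Hsp90b1 and Dnajb9, no aged rat overlapped an adult rat, a pattern found in 2.95% of all genes.

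On the scale of the ageing table, Dnajb9 had the largest of these changes, with 2110 to 2446 in adult EH rats and 2449 to 3299 in aged EH rats, an LFC of 0.32 ± 0.07 (Padj = 0.0141). Hspa5 stood at 16054, 15570, 15722, 16975 and 17496 in adult rats and at 18011, 18909, 20884, 19777 and 17067 in aged rats. Aged EH replicate 6 fell inside the adult range, and the LFC was 0.21 ± 0.05 (Padj = 0.0322). Hsp90b1 rose by 0.15 ± 0.04 (Padj = 0.0392).

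Ssr1 stood at 4590, 4361, 5034, 5024 and 5196 in adult rats and at 5432, 5674, 6203, 5721 and 4999 in aged rats, an LFC of 0.21 ± 0.06 (Padj = 0.0483) with an overlap from the same aged rat. Herpud1 stood at 1509, 1576, 1562, 1637 and 1615 in adult rats and at 1822, 1614, 1874, 1827 and 1724 in aged rats, where aged EH replicate 2 fell inside the adult range (LFC 0.16 ± 0.04, Padj = 0.0443). Herpud1 was thus called in ageing and not in either DH comparison, a difference that was not tested. Xbp1 (2205 to 2319 in adult and 2304 to 2607 in aged rats) had an LFC of 0.10 ± 0.04 and was not called (Padj = 0.15). Eif2ak3 (LFC 0.15 ± 0.05, Padj = 0.0878) and Sdf2l1 (LFC 0.25 ± 0.08, Padj = 0.0714) did not pass either.

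**Figure D5:**
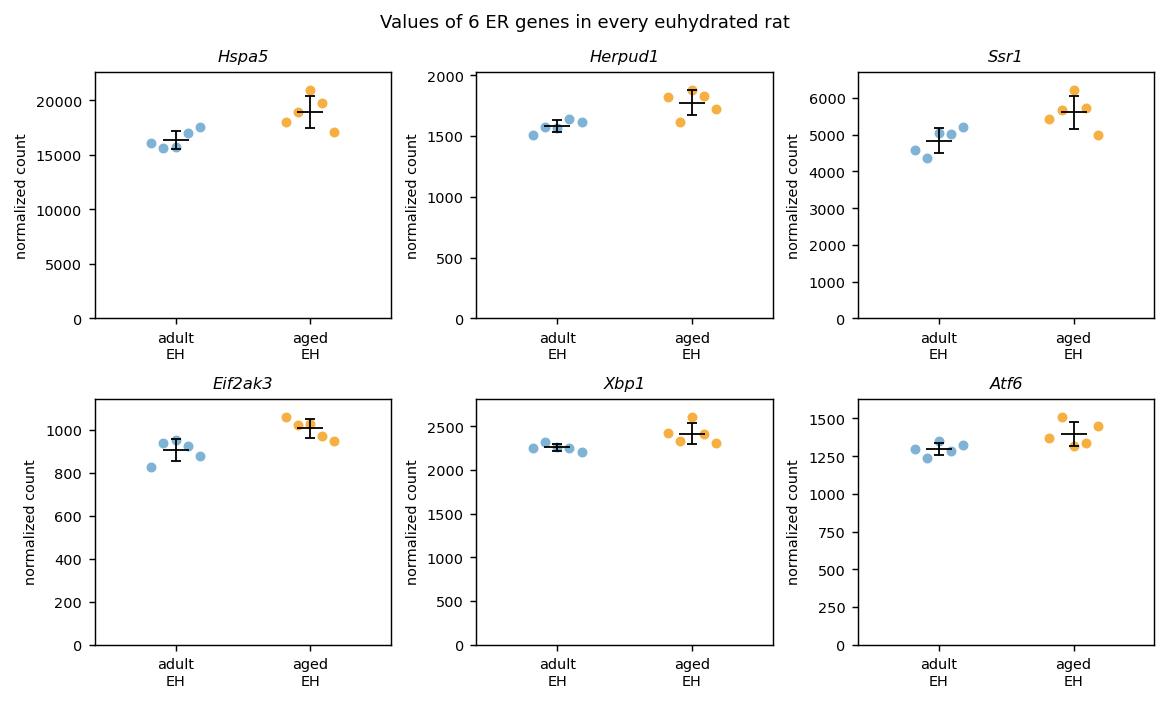
Normalised read counts (y axis, from 0) of 6 members in the 5 adult EH and 5 aged EH rats (x axis), with black bars for the mean and SD. Hspa5, Herpud1 and Ssr1 were called higher in aged rats, each with at least 1 aged rat inside the adult range, and Eif2ak3, Xbp1 and Atf6 were not called.

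The 5 calls in ageing rested on the whole set of rats. With a rat left out, 1 member was called if that rat was aged EH replicate 4, aged EH replicate 5, or adult EH replicate 1, 2 or 4. The count was 2 without aged EH replicate 2, also 2 without adult EH replicate 5, and 3 without aged EH replicate 1. It was 4 without adult EH replicate 6 and 7 without aged EH replicate 6. Dnajb9 kept its call in all 10 of these fits, with Padj up to 0.039. With equal library totals 1 member was called, without the filter on the mean 2, and with a single prior variance 0. Between these same rats the magnocellular markers were higher in aged EH (4 of 14 called, median LFC 0.27, sums of 286029 to 407134 against 229005 to 326376). The oligodendrocyte markers were lower in aged EH (5 of 10 called, sums of 246252 to 298453 against 275464 to 401872). The microglial markers were higher (4 of 10 called, 8704 to 10054 against 7368 to 8569). The leptomeningeal and fibroblast markers were lower (5 of 6 tested called, 7868 to 13509 against 20803 to 25815). Of the astrocyte markers 2 of 9 and of the endothelial markers 2 of 7 tested were called lower. Over all 15369 genes tested, 414 were called higher and 507 lower in ageing. The part of these cell types in the ER values was not tested. By the study's methods adult and aged rats were handled side by side by the same people, although the adult data had been published before.

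Ageing shares its adult EH rats with adult DH and its aged EH rats with aged DH, so the 3 comparisons are given side by side only. Hspa5, Hsp90b1 and Ssr1 were called higher in all 3, and 19 of the 38 members were called in none. Those 19 were 2 chaperones, 1 disulfide isomerase gene (Ero1b), 5 degradation genes, 3 genes of the sensor group (Xbp1, Ern1 and Eif2ak3) and 8 translocon genes.

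ERSE was present both in members that rose in DH and in members that were not called. Of the 9 members with ERSE, 5 rose in adult DH (Hspa5, Hsp90b1, Canx, Dnajc3 and Calr) and 4 rose in aged DH. Of the 22 members whose window held no ERSE, 8 rose in adult DH and 4 in aged DH. Those 22 include Hyou1, Dnajb11 and Herpud1, which hold ERSE-II. Of the 12 members with ERSE or ERSE-II, 7 rose in adult DH and 4 in aged DH. The shares of all genes called higher were 7.67% in adult DH and 4.05% in aged DH. The difference between members with and without these motifs was not tested. Pdia4 and Ssr1, which rose at both ages, had no match to any of the 4 motifs in their windows. Among 8 tested genes outside the module with ERSE in a window, 2 rose in adult DH, Ppm1l and Zfand2a (named after their values were seen), and 0 in aged DH by limma, where their adjusted p values were 0.0677 and 0.0607.

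The rest of the ER machinery, listed separately from the 38, was also shifted to higher values in DH. Of 123 further ER genes by symbol, 111 were tested in adult DH, where 35 were called higher (31.5%, against 7.67% of all genes) and 3 lower and the median LFC was 0.07. In aged DH 112 were tested, where 21 were called higher (18.8%, against 4.05% of all genes) and 1 lower and the median LFC was 0.075. Among 30 tested genes on the folding list 11 were higher and 1 lower in adult DH. The lowest Padj there belonged to Nucb2 (LFC 0.45 ± 0.06), which is counted in these shares. It encodes a calcium-binding protein that is not established as an ER folding factor, and its part in folding was not tested. The thioredoxin-like genes Txndc12 and Tmx1 came next (LFC 0.25 ± 0.04 and 0.29 ± 0.05). In aged DH 7 of 30 were higher and 0 lower, led by Sdf2, Tmx1 and Ganab, the last encoding the catalytic subunit of glucosidase II.

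Among 32 tested targeting and translocon genes 12 were higher and 1 lower in adult DH and 5 higher and 0 lower in aged DH. The leading ones included the oligosaccharyltransferase genes Rpn2 (LFC 0.35 ± 0.03 in adult DH, Padj = 4.32e-06) and Ostc (0.37 ± 0.06), and Ddost and Tusc3 in aged DH (0.29 ± 0.05 and 0.27 ± 0.04). All are parts of the complex that adds N-glycans beside the channel. Emc7, a subunit of the ER membrane insertase, rose by 0.33 ± 0.04 and 0.39 ± 0.04 at the 2 ages. Of 25 tested degradation factors 6 rose in adult DH and 3 in aged DH, with none lower by limma in either. Vcp, the ATPase that pulls proteins from the ER, rose by 0.11 ± 0.02 and 0.12 ± 0.03. In adult DH 36.7% of these further folding factors were called higher, against 37.5% of the targeting and translocon genes and 24% of the degradation factors. The contrast of folding with translocon members in adult DH was thus not seen in these lists. In aged DH the 3 shares were 23.3%, 15.6% and 12%.

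Among the other UPR signalling genes, of 24 tested in adult DH 6 were higher (25%, against 7.67% of all genes) and 1 lower. Of 25 tested in aged DH 6 were higher (24%, against 4.05% of all genes) and 1 lower. Atf4, the transcription factor favoured when eIF2alpha is phosphorylated, rose by LFC of 0.52 ± 0.03 in adult DH (Padj = 4.87e-07) and 0.43 ± 0.07 in aged DH (Padj = 0.00177), and its target Chac1 by 0.55 ± 0.06 and 0.61 ± 0.10. Ppp1r15a, whose product takes phosphate off eIF2alpha, rose by 0.41 ± 0.05 and 0.33 ± 0.06, and Creb3, encoding an ER-anchored transcription factor, by 0.32 ± 0.03 and 0.25 ± 0.05. In ageing 4 of 25 were higher (16%, against 2.69% of all genes) and 1 lower, led by Crebrf, Atf4 and Ddit3 (LFC 0.21 to 0.28).

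For comparison, 6 of 33 tested cytosolic chaperones were higher in adult DH and 5 of 33 in aged DH, with 0 lower in either by limma and medians of 0.05 in both, led by Hspb8. These are 18.2% and 15.2%, again above the 7.67% and 4.05% of all genes called higher, so a share above that of all genes was not particular to the ER module. Of 36 tested coat and cargo genes of COPI and COPII vesicles, which carry proteins between ER and Golgi, 9 were higher and 2 lower in adult DH and 4 higher and 1 lower in aged DH, or 25.0% and 11.1% higher. The lowest Padj belonged to the cargo receptor gene Tmed3 in adult DH and to Tmed10, another of that family, in aged DH.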

How the data were processed

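RNA-seq libraries of 20 SON samples were made by the authors from stranded, poly(A)-selected RNA and sequenced paired-end. Per the study's methods reads were aligned with STAR to the rat build Rn6, counted per gene with featureCounts and scaled with DESeq2. The deposited values are normalised read counts (a signal scaled by size factors) in 3 tables of 10 libraries, for ageing, adult DH and aged DH, each scaled separately. The authors' own columns of fold changes and p-values were not used.

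Groups came from the sample labels, 5 rats in each. The module's genes, the role groups and the other lists were chosen with earlier results of these data known. Every value was a whole multiple of 1 read within a tolerance of 0.1, and the reads recovered for the 10 EH rats were identical between the tables that hold them. Normalised counts were taken as log2(value + 1), genes with a mean of at least 10 were kept, and groups were compared with limma 3.58.1 with a mean-variance trend in R 4.3.3. p-values were adjusted by Benjamini-Hochberg over all genes tested (Padj), with 0.05 as the threshold. Fold changes are on that log2 scale, and intervals are 95%. The difference between the ages was fitted over all 20 rats, with a level set for each table, so fold changes were compared and levels were not. The p-values measure the spread between rats. Depth was 24268398 to 30348118 reads per rat, and its effect on precision was not tested.

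Every member could be named. Values rat by rat were given for Hspa5, Xbp1 and the 2 members of each role group with the lowest Padj in any comparison, and of the other lists the 3 called genes with the lowest Padj in a comparison could be named. Alternatives were other pseudocounts (0.5 and 10), no filter or a mean of at least 50, equal library totals, upper-quartile scaling, one prior variance, a replicate block, leaving out each rat, and edgeR 4.0.16 and DESeq2 1.42.0 on the recovered reads. The count tests in ageing, in aged DH and for the difference between the ages, and the joint scaling of all 20 libraries, were added after seeing the data. The scripts were tested on simulated data. Motifs were searched with Python 3.11.15 in RefSeq windows of GRCr8, a build other than that of the counts, and no protein sequences were used.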

Additional observations from a re-analysis of the deposited data

Results flagged for a closer look

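Eif2ak3, encoding PERK, stood apart in a single rat. Adult DH replicate 5 had 963.3 normalised read counts, while the other 4 adult DH rats ran from 829.8 to 860.0. The gap to the nearest rat was 0.774 of the range of the group, above Dixon's critical value of 0.71 for 5 samples. It was the only such group among the 66 groups examined over 11 members. Each EH group was counted once in every table that holds it, so the 66 are not all distinct. Chance gives about 1 in 20, so a single flag is not more than chance gives, and the cause was not tested.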

How the results depend on the processing

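No gene changed direction, and 16 of 33 gene results kept their call in every setting run. In ageing, the 5 called members became 2 without a filter on the mean, 1 with equal library totals, 0 with one prior variance, and 1 to 7 when a rat was left out. edgeR called 5 and DESeq2 7. In adult DH, the 18 became 15 without a filter on the mean, 16 with upper-quartile scaling, 13 with equal library totals and 13 with one prior variance. The count was 12 to 18 when a rat was left out, and edgeR and DESeq2 each called 18. In aged DH, the 10 became 5 with one prior variance and 6 to 12 when a rat was left out. edgeR called 10 and DESeq2 12. The difference between the ages gave 0 members in every setting. The cause of these shifts was not tested.

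With a replicate block, 1 member was called in ageing, 12 in adult DH, 12 in aged DH and 0 for the difference between the ages. In both DH comparisons that fit used the rats whose number occurs in both groups, so it had fewer rats. The numbers are not stated to pair rats, and the correlation of same-numbered rats' deviations from their group means ran from -0.08 to 0.16, so the block is given as an alternative only. In 3 of 13 same-numbered pairs the rat of one group correlated best with the rat of its own number in the other.

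Over all genes, higher and lower calls were 414 and 507 in ageing, 1172 and 762 in adult DH and 621 and 498 in aged DH. With equal library totals they were 302 and 747, 890 and 1161, and 534 and 594. With one prior variance they were 234 and 282, 904 and 537, and 395 and 276, and with the replicate block 372 and 452, 679 and 301, and 415 and 220. For the difference between the ages 0 genes passed by limma and by edgeR, with 1522 at an unadjusted p under 0.05 by limma, and DESeq2 called 23 higher and 32 lower. Leaving out aged EH replicate 5 or aged DH replicate 5 lowered the aged DH calls to 410 and 269 or 409 and 269. In ageing, aged EH replicate 4 left out gave 279 and 320, and adult EH replicate 5 left out gave 266 and 328.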

Other observations

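In ageing, 112 genes of the further ER lists were tested. Of these 7 passed as higher (6.25%, against 2.69% of all genes) and 2 as lower, and the median LFC was 0.02. The folding factor Erp29 was higher (LFC 0.23 ± 0.06, Padj = 0.0406) and Fkbp9, a prolyl isomerase gene, was lower (LFC -0.35 ± 0.09, Padj = 0.0303) in limma. Rpn2, an oligosaccharyltransferase gene, and Erlec1, encoding a lectin of ER degradation, were each higher by 0.19. The only COPI or COPII gene called in ageing was Tmed3, encoding a cargo receptor, with an LFC of 0.39 ± 0.08.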
